A study of Mus musculus with 12 samples.

Results

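The genes of retinoid metabolism described here are 9 of the 32047 genes in a count table of mouse kidney. They are the retinol dehydrogenases Rdh16, Rdh16f2 and Rdh10, the retinaldehyde dehydrogenases Aldh1a1, Aldh1a2 and Aldh1a3, the binding proteins Rbp4 and Crabp2, and the retinoic acid hydroxylase Cyp26b1. All 9 listed symbols were found in the table. They were selected by name and role with earlier results from the counts of all 12 libraries in view, so their levels and fold changes are given as a description, with no test.

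The study measured kidney mRNA by sequencing of poly(A) RNA in 3 groups of 4 libraries. In the group labelled AKI_A_FGF23_R176QR179Q, mice overexpressed the R176Q/R179Q variant of FGF23, a phosphate-regulating hormone, and an acute kidney injury of the rhabdomyolysis type was induced 3 weeks later. The group labelled AKI_A_mcherry carries the same injury label, with mCherry, a fluorescent protein, named in place of the hormone, and the group labelled NC is not expanded in the labels. The 3 are called the FGF23 variant, mCherry and NC groups here. The labels analysed here give neither the way the protein was overexpressed, nor the strain, age, day of collection or whether each library came from its own animal. The p-values therefore measure the spread between libraries, which may be technical.

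Retinol, the alcohol form of vitamin A, is carried in blood by retinol-binding protein and oxidised in cells in a pair of steps. Retinol dehydrogenases first make retinaldehyde, and retinaldehyde dehydrogenases then make retinoic acid irreversibly. Retinoic acid binds nuclear receptors that act on transcription, and CYP26 enzymes break it down. In the kidney, proximal tubule cells recover filtered retinol-binding protein through megalin, the product of Lrp2.

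Rdh16 and Rdh16f2 belong to a cluster of closely related genes, which bears on how reads are assigned to them. The first 90 coding bases, taken from GENCODE M21 transcripts, are shown for both genes and for Rdh9, a further member of the cluster, with capitals marking bases that differ from Rdh16.
Rdh16: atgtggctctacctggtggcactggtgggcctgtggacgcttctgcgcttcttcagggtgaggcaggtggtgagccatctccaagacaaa
Rdh16f2: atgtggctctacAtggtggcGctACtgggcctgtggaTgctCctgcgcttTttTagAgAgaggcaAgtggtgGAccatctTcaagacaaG
Rdh9: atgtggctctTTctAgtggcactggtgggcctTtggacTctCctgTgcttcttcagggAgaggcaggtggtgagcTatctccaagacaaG
In this stretch Rdh16f2 differed from Rdh16 at 15 bases and Rdh9 at 10. Over 954 aligned coding bases, Rdh16f2 was 91.8% identical to Rdh16. The longest run shared by their whole transcripts, untranslated parts included, was 49 bases. Rdh9 was 96.3% identical to Rdh16, and their transcripts shared a run of 229 bases, longer than a 150-base read. Counts of Rdh16, Rdh9 and the other near copies are therefore uncertain to the extent that the authors' counting could divide shared reads.

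The 250 bases before the start of each of these genes are shown from RefSeq, build GRCm38.p6, because both genes were lowest in the mCherry group. Capitals mark AGGTCA, the hexamer recognised by retinoic acid receptors and other nuclear receptors, on either strand.
Rdh16, chr10:127800903-127801152, plus strand: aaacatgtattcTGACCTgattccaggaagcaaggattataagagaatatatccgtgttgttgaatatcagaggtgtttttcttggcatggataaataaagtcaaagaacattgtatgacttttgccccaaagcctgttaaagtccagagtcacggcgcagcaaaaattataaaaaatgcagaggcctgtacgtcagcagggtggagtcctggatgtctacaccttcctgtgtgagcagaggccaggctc
Rdh16f2, chr10:127866226-127866475, plus strand: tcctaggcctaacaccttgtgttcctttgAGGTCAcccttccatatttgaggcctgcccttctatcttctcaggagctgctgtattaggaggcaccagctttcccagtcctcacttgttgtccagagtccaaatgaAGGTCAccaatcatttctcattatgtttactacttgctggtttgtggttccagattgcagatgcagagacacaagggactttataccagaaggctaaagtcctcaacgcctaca
Rdh16 held 1 match, on the minus strand, and Rdh16f2 held 2, both on the plus strand. Of all 32851 promoter windows of 300 bases in the RefSeq table, 16.3% held the hexamer. Aldh1a1, Aldh1a2, Cyp26b1 and Rbp4, the other members with an entry, held none in their windows. AGGTCA repeats in the same direction, spaced by 1, 2 or 5 bases, were found in no member's window and in 0.0396%, 0.00913% and 0.00913% of all windows. A match is a description of letters and says nothing of binding.

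Library totals ran from 55324078 to 70638283 counts. Values for 1 gene are given as CPM, the count scaled to a common library size of 1000000 after TMM scaling over the 12 libraries. Levels of different genes are compared as FPKM, which also divides by gene length. The exception is Rdh16 and its near copies, whose counts are also set side by side without that division. Certain libraries stood apart in genes of other tissues. Summed over 6 fat markers (Adipoq, Plin1, Cidec, Cfd, Lep and Retn), mCherry replicate 3 reached 137.8 CPM, NC replicate 2 reached 106.3 and FGF23 variant replicate 1 reached 90.2, against 1.40 to 25.9 in the other libraries. Summed over 6 urothelial markers, mCherry replicate 3 was at 175.3 CPM and the other 11 libraries lay between 5.31 and 74.6.

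The proximal tubule is the segment in which filtered retinol-binding protein is recovered. Its marker genes were far lower in the mCherry and FGF23 variant groups than in NC. The summed level of 8 markers was 7805 to 11080 CPM in NC, 757 to 1056 in mCherry and 885.6 to 2204 with the FGF23 variant. The mCherry and FGF23 variant sums overlapped. The sum of 5 genes of injured tubule was 14.0 to 23.0 CPM in NC, 4094 to 5039 in mCherry and 691.5 to 2131 with the FGF23 variant. In whole kidney RNA, fewer cells of a type and less RNA per cell cannot be told apart.

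Rdh16, which oxidises retinol and hydroxysteroids, was far lower in the mCherry group than in either other group. It stood at 129.5, 172.3, 152.7 and 173.8 CPM in the 4 NC libraries. It stood at 20.4, 14.6, 15.8 and 18.7 CPM in mCherry and at 144, 103, 111 and 105.5 CPM in the FGF23 variant group. No mCherry library came near either other group, while 1 FGF23 variant library lay inside the NC range. The mCherry group was 9.01-fold lower than NC (log2 fold change -3.17 ± 0.14, SE). The FGF23 variant group was 6.59-fold higher than mCherry (2.72 ± 0.15) and 1.37-fold lower than NC (-0.46 ± 0.13). That last difference shrank to -0.12 when libraries were scaled by their totals alone.

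Rdh16f2, the near copy of Rdh16, had the same low point but a different top. Its NC libraries held 60.9, 58.7, 48.8 and 85.01 CPM, and its mCherry libraries 7.83, 11.4, 13.3 and 10.6. The FGF23 variant libraries held 169.9, 113.8, 162.2 and 117.4 CPM, all above every NC library. The 3 groups did not overlap. The mCherry group was 5.86-fold lower than NC (-2.55 ± 0.20), and the FGF23 variant group was 12.9-fold higher than mCherry (3.69 ± 0.20) and 2.20-fold higher than NC (1.14 ± 0.19). Genes with sex-biased kidney expression also differed by group, with Y chromosome genes present in all 12 libraries. The sum of 3 female-biased genes was 53.7 to 111 CPM in NC and 116 to 197 with the FGF23 variant. In mCherry it was 70.9 in replicate 1 and 5.16, 9.96 and 6.43 in replicates 2 to 4. For mCherry against NC 2 of them fell, and 2 were higher in the FGF23 variant group against either other group. The sum of 6 male-biased genes was 25030 to 29510 CPM in NC, 5994 to 16850 in mCherry and 1410 to 3164 with the FGF23 variant. All 6 were lower against NC in both other groups, and 3 were lower for the FGF23 variant group against mCherry. No other gene of these lists was called. Their part in the Rdh16 and Rdh16f2 values was not tested.

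The balance between the 2 genes also differed by group, on a measure that needs no scaling between libraries. The ratio of Rdh16f2 to Rdh16 counts within a library was 0.470, 0.340, 0.320 and 0.489 in NC and 0.384, 0.779, 0.839 and 0.570 in mCherry. It was 1.18, 1.11, 1.46 and 1.11 in the FGF23 variant group, so Rdh16f2 had the more counts in all 4 of its libraries and in none of the other 8. The FPKM ratio, 1.57 to 7.18 over all libraries, favoured Rdh16f2 throughout, because the deposited values imply a length of 6768 bases for Rdh16 and 1377 for Rdh16f2.

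The further near copies were scarce. Rdh9 had 0 counts in all 4 mCherry libraries, 0 to 17 in NC, and 0 to 280 in the FGF23 variant group, where 2 libraries were also at 0. Rdh19 had 27 to 74 counts in the FGF23 variant group, 0 to 4 in mCherry and 0 to 12 in NC. Rdh7 had 12 to 49, 0 to 5 and 7 to 43 counts in the same order, and Rdh1 had 80 to 190, 66 to 188 and 58 to 151. Because the highest of these counts was 280 and Rdh16 had at least 728 in every library, the copies held far fewer assigned reads than Rdh16; how shared reads were divided was not tested.

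Rdh10, the dehydrogenase that supplies retinaldehyde in the embryo, followed an opposite course. NC libraries were tightly grouped at 52.5, 51.1, 49.4 and 48.7 CPM. The mCherry libraries held 136.3, 105, 119.5 and 140.9 CPM, and the FGF23 variant libraries 59.7, 66.1, 95.0 and 81.1. Again no group overlapped another, with the FGF23 variant group between the other 2. The mCherry group was 2.49-fold higher than NC (1.32 ± 0.11), and the FGF23 variant group was 1.68-fold lower than mCherry (-0.75 ± 0.16) and 1.48-fold higher than NC (0.57 ± 0.13).

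**Figure D1:**
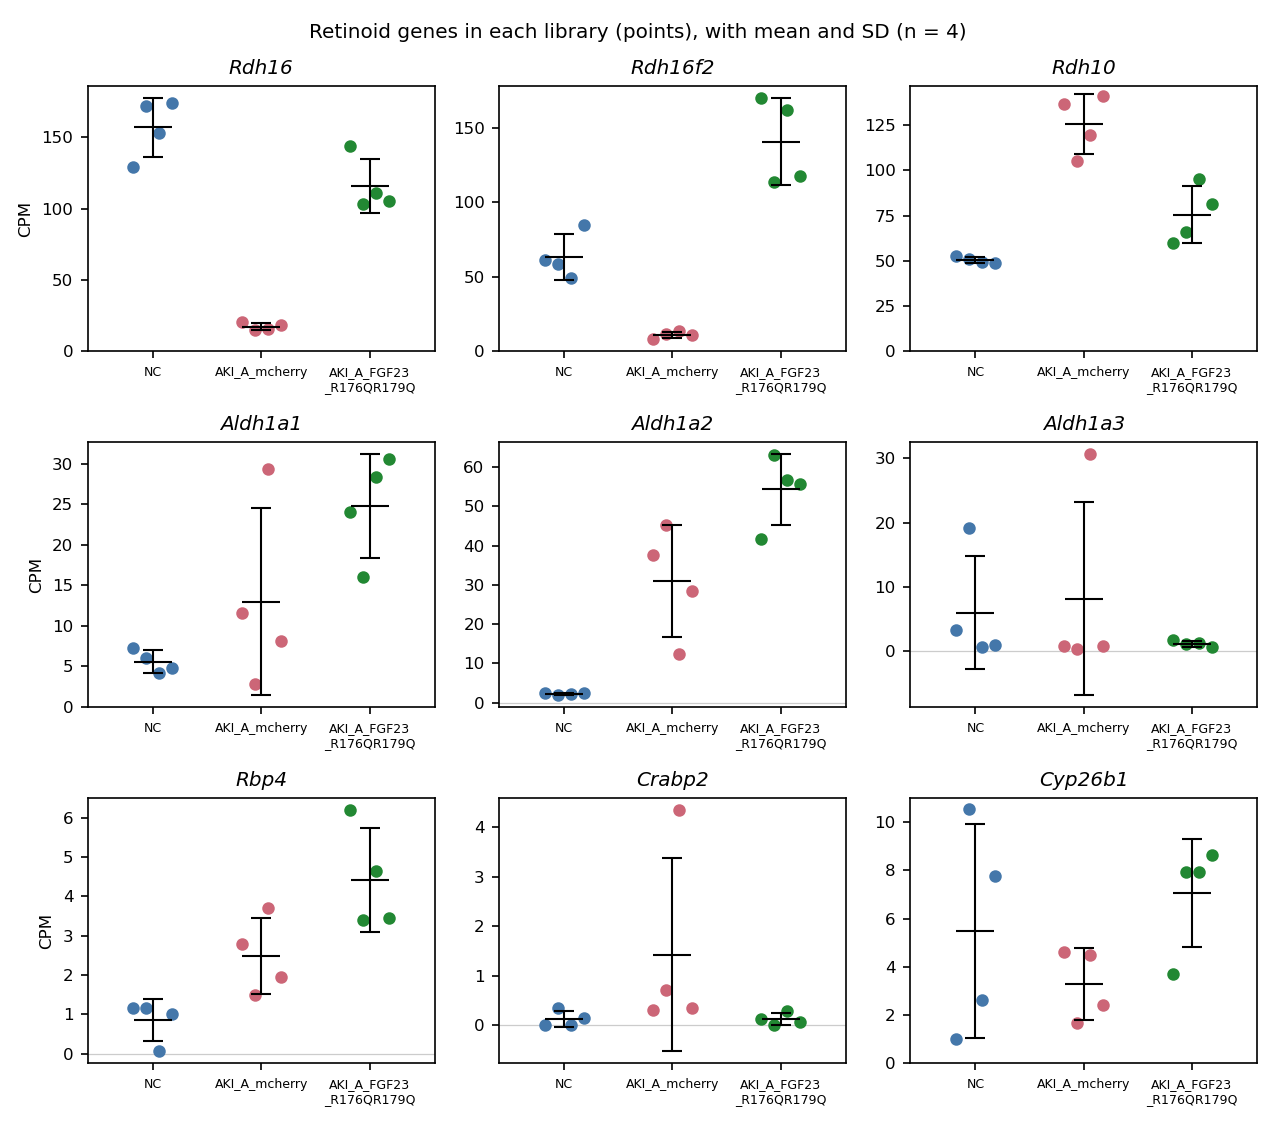
CPM of each of the 9 genes (vertical axes, linear) in each library, with points for libraries and lines for the mean and SD of 4. Rdh16 and Rdh16f2 are lowest in all 4 mCherry libraries, Rdh10 is highest there, and single libraries set the spread of Aldh1a3 and Crabp2.

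Aldh1a2, which makes retinoic acid from retinaldehyde, had the widest range among the 3 retinaldehyde dehydrogenases between NC and the injured groups. It stood at 2.45, 1.90, 2.27 and 2.52 CPM in NC and at 37.7, 45.4, 12.3 and 28.4 CPM in mCherry. The FGF23 variant libraries held 41.7, 63.0, 56.8 and 55.8 CPM. Every injured library was above every NC library, while the injured groups overlapped in 1 library of each. The lowest mCherry value, 12.3 CPM, was that of replicate 3. The mCherry group was 13.6-fold higher than NC (3.77 ± 0.36) and the FGF23 variant group 23.5-fold higher than NC (4.55 ± 0.15). Between the injured groups the difference was 0.80 ± 0.32, higher in the FGF23 variant group. The sum of 7 fibroblast markers was 213.0 to 295.8 CPM in NC, 443.1 to 483.9 with the FGF23 variant, and 396.0, 517.7, 156.5 and 280.8 in mCherry replicates 1 to 4. Of these 7 markers, 2 rose and 3 fell for mCherry against NC, 3 rose and none fell for the FGF23 variant group against mCherry, and 4 were higher and none lower for it against NC. Their part in the Aldh1a2 values was not tested.

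Aldh1a1, a second enzyme of that step, varied most within the mCherry group. NC libraries held 7.31, 6.09, 4.14 and 4.86 CPM, mCherry libraries 11.6, 2.79, 29.4 and 8.10, and FGF23 variant libraries 24.1, 16.1, 28.4 and 30.6. All FGF23 variant libraries were above all NC libraries, whereas the mCherry libraries spanned almost the whole range. The highest of them, 29.4 CPM, was replicate 3, a library with high fat and urothelial marker sums. The FGF23 variant group was 4.38-fold higher than NC (2.13 ± 0.23). The mCherry group differed from NC by 1.21 ± 0.54, and the FGF23 variant group from mCherry by 0.91 ± 0.54. Without mCherry replicate 3 these became 0.44 and 1.70. Aldh1a1 shares 91.6% of its coding bases with Aldh1a7, and the longest run their transcripts share, 100 bases, is shorter than a read.

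Aldh1a3, the third such enzyme, was near 1 CPM except in a few libraries. The FGF23 variant libraries held 1.73, 1.055, 1.25 and 0.629 CPM, the mCherry libraries 0.857, 0.321, 30.7 and 0.761, and the NC libraries 3.27, 19.1, 0.712 and 0.909. The highest values, in mCherry replicate 3 and NC replicate 2, were those of the libraries with the highest fat marker sums. The next highest fat sum, 90.2 CPM in FGF23 variant replicate 1, went with 1.73 CPM of Aldh1a3. The sum of 3 mesothelial markers was also highest in mCherry replicate 3 and NC replicate 2, at 28.0 and 11.7 CPM. It was 11.6 CPM in mCherry replicate 4, which held 0.761 CPM of Aldh1a3. The fitted difference between mCherry and NC was 0.44 ± 1.39 with all libraries, -3.19 without mCherry replicate 3 and 2.33 without NC replicate 2. Between the FGF23 variant and mCherry groups it was -2.83 ± 1.26, and 0.83 without that library. Against NC the FGF23 variant group differed by -2.38 ± 0.93, and by -0.50 without NC replicate 2. The part of fat, urothelial or mesothelial tissue in these values was not tested.

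**Figure D2:**
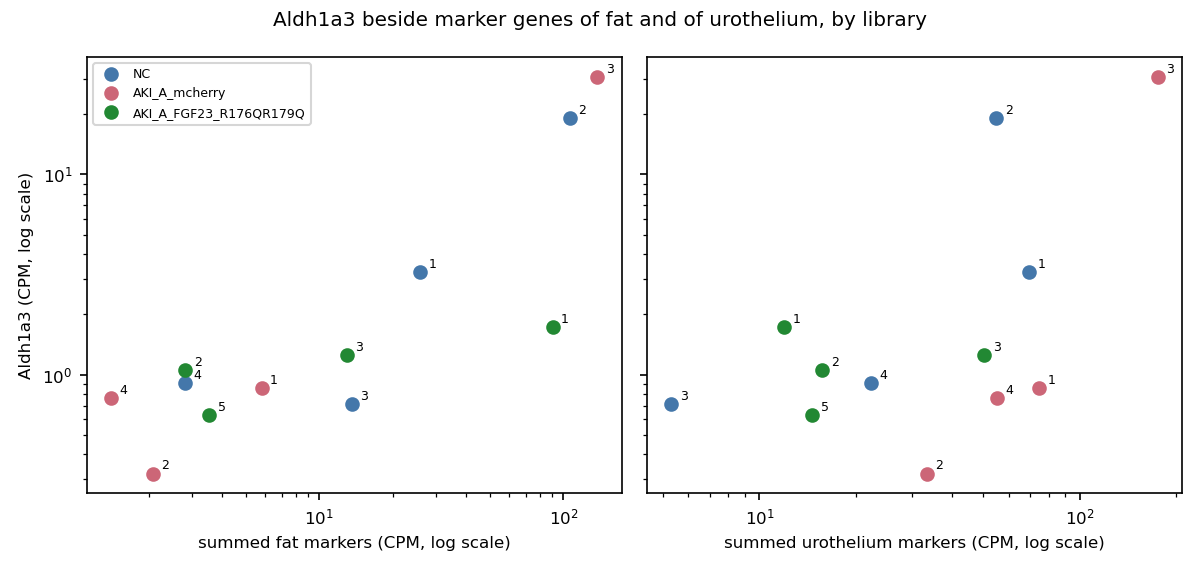
Aldh1a3 in each library (vertical axis, CPM, log scale) against the summed fat markers and the summed urothelial markers (horizontal axes, CPM, log scale), with replicate numbers beside the points and colours for the groups. The 2 libraries above 10 CPM of Aldh1a3, mCherry replicate 3 and NC replicate 2, have the 2 highest fat marker sums, 137.8 and 106.3 CPM.

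By FPKM, the make-up of the Aldh1a transcripts differed between the groups. Aldh1a2 made up 77.9%, 88.9%, 80.7% and 79.5% of their sum in the FGF23 variant libraries. It made up 86.8%, 97.0%, 30.2% and 87.5% in mCherry, where replicate 3 was the exception with 36.8% from Aldh1a3. In NC, Aldh1a2 made up 33.1%, 13.6%, 50.3% and 48.7%, and Aldh1a1 45.4%, 19.8%, 41.9% and 42.7%. NC replicate 2 stood apart again, with 66.6% from Aldh1a3. Aldh1a2 thus led in all 4 FGF23 variant libraries, in 3 mCherry libraries and in 2 NC libraries. The depth behind an FPKM share is the library total, and no interval is given for it.

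**Figure D3:**
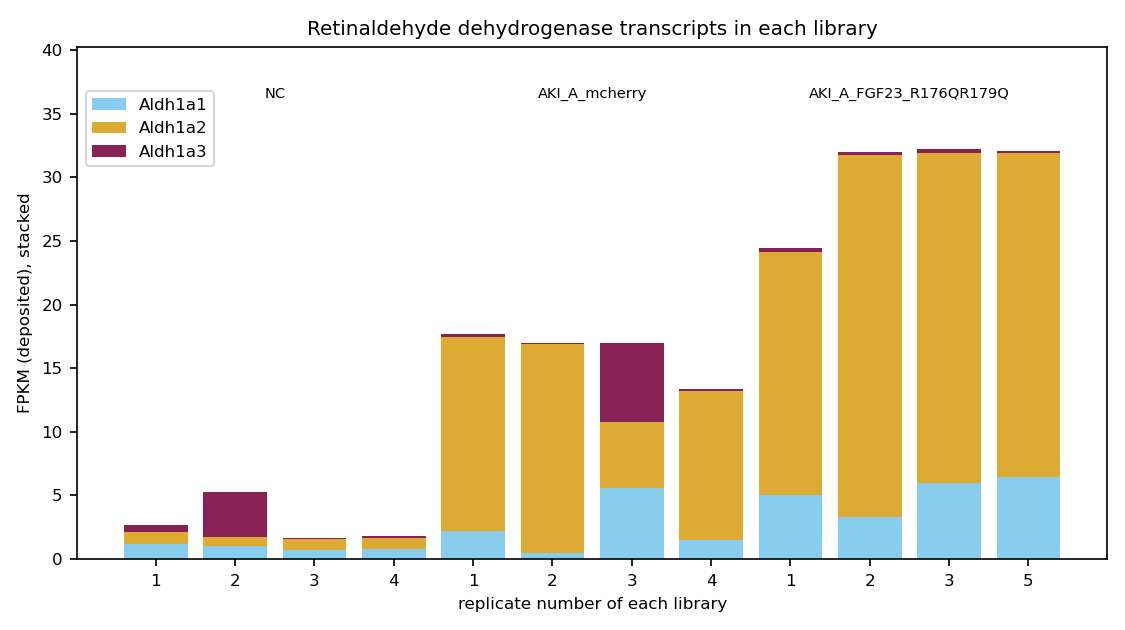
Stacked deposited FPKM of Aldh1a1, Aldh1a2 and Aldh1a3 (vertical axis) in each of the 12 libraries (horizontal axis, replicate numbers by group). Aldh1a2 lies at 0.72 to 0.90 FPKM in NC and at 19.1 to 28.4 in the FGF23 variant libraries, and Aldh1a3 is visible in mCherry replicate 3 and NC replicate 2.

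Rbp4, the blood carrier of retinol, was low in kidney in all groups and ordered NC, mCherry, FGF23 variant. It stood at 1.16, 1.18, 0.0647 and 1.02 CPM in NC, at 2.78, 1.51, 3.70 and 1.96 in mCherry, and at 6.19, 3.40, 4.65 and 3.44 in the FGF23 variant group. All injured libraries were above all NC libraries, and the injured groups overlapped. The FGF23 variant group was 5.12-fold higher than NC (2.36 ± 0.58). The mCherry group differed from NC by 1.54 ± 0.63, and the FGF23 variant group from mCherry by 0.81 ± 0.31. Rbp4 is made mainly in liver, and the sum of 7 liver markers was 26.1 to 32.4 CPM in NC, 384 to 1015 in mCherry and 130.7 to 859.2 with the FGF23 variant. Fga and Fgb, which encode fibrinogen chains, carried most of the sum in the injured libraries. Of the 6 liver markers tested, 2 rose and 3 fell for mCherry against NC, with a median log2 fold change of -0.05. For the FGF23 variant group, 1 rose and 1 fell against mCherry, and 3 were higher and 1 lower against NC. Their part in Rbp4 was not tested.

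Crabp2, which carries retinoic acid to the nucleus, was close to the limit of detection. It had 0, 20, 0 and 9 counts in NC, 18, 35, 276 and 23 in mCherry, and 9, 0, 20 and 5 with the FGF23 variant. The mCherry group was the highest, and mCherry replicate 3 alone held most of its counts. The fitted difference was 3.52 ± 1.22 for mCherry over NC with all libraries, 1.88 without that library and 4.81 without NC replicate 2. It was -3.61 ± 1.10 for the FGF23 variant group against mCherry with all libraries, -1.94 without that same library and -4.50 without FGF23 variant replicate 3. Crabp2 did not pass the filter on low counts when the FGF23 variant libraries were set against NC. A count of 0 allows up to 3 counts in that library, and only counting error is covered by that limit.

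Cyp26b1, which inactivates retinoic acid, showed no group apart from the others. NC libraries held 1.02, 10.5, 2.62 and 7.78 CPM, mCherry libraries 4.598, 1.67, 4.48 and 2.42, and FGF23 variant libraries 3.73, 7.96, 7.92 and 8.66. The NC libraries alone covered more than the range of both injured groups. The highest NC value, 10.5 CPM, came from NC replicate 2, and the lowest FGF23 variant value, 3.73 CPM, from FGF23 variant replicate 1. Both libraries have high fat marker sums. The library with the highest such sum, mCherry replicate 3, held 4.48 CPM, inside the range of its group. The part of fat tissue in these values was not tested. The fitted differences were -0.73 ± 0.61 for mCherry against NC, 1.08 ± 0.36 for the FGF23 variant group against mCherry, and 0.35 ± 0.58 for it against NC.

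Ranked by mean FPKM, the leading genes changed with the group. In NC the order began with Rdh16f2 at 41.6 ± 9.31 FPKM (SD, n = 4), Rdh16 at 21.0 ± 2.86 and Rdh10 at 10.1 ± 0.467, whose ranges did not touch. The other 6 genes had means of 1.10 FPKM or less, and each overlapped the next in the order. In mCherry, Rdh10 led at 27.4 ± 4.82 FPKM, ahead of Aldh1a2 at 12.2 ± 5.11 and Rdh16f2 at 7.70 ± 1.72, and these last 2 overlapped. Rdh16 stood below them at 2.53 ± 0.477 FPKM. In the FGF23 variant group Rdh16f2 led at 115 ± 24.4 FPKM. Aldh1a2 at 24.7 ± 3.99, Rdh16 at 19.2 ± 3.22 and Rdh10 at 18.7 ± 3.99 FPKM followed, each overlapping the next, and Aldh1a1 at 5.18 ± 1.37 overlapped only Rbp4, at 3.39 ± 1.02, below it. Cyp26b1 at 1.36 ± 0.432, Aldh1a3 at 0.258 ± 0.1001 and Crabp2 at 0.0850 ± 0.0947 FPKM closed the order.

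**Figure D4:**
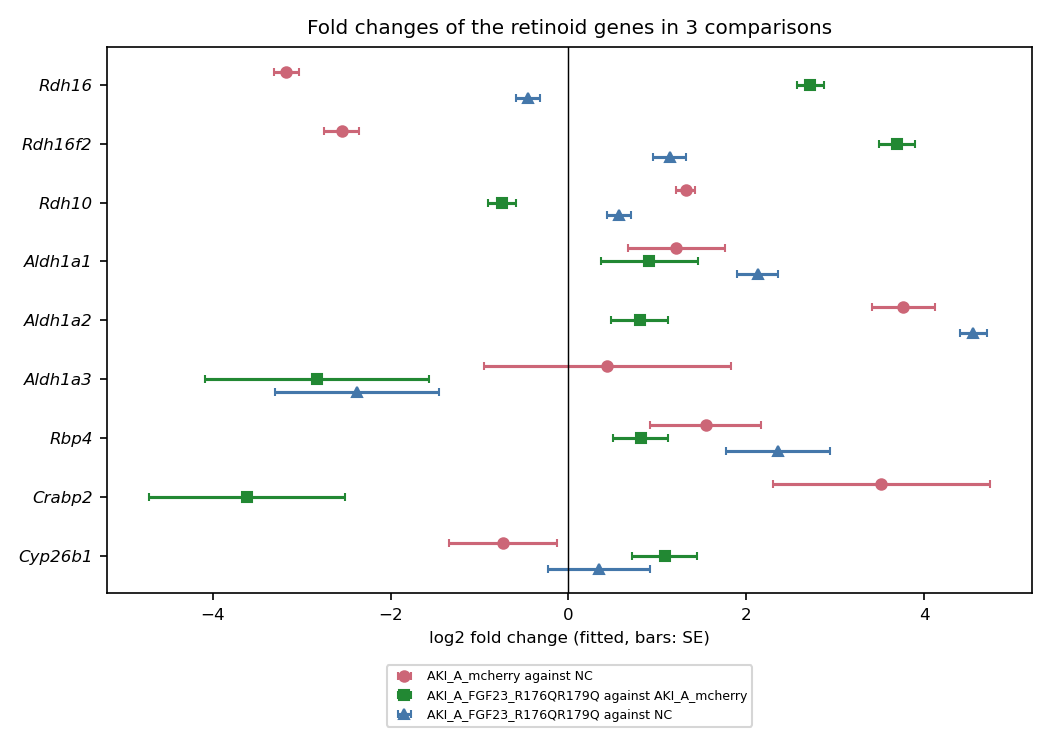
Fitted log2 fold changes (horizontal axis, with SE bars) of the 9 genes in the 3 comparisons, which share groups. Rdh16 and Rdh16f2 lie at -3.17 and -2.55 for mCherry against NC and at 2.72 and 3.69 for the FGF23 variant group against mCherry, and Crabp2 has no value against NC in the FGF23 variant group.

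Set beside all genes, the counts of members past an adjusted p of 0.05 in edgeR's quasi-likelihood test read as follows, with nothing drawn from them because these contrasts were known when the genes were chosen. For mCherry against NC, 3 of 9 members were higher and 2 lower, where 27.2% of 18724 genes tested were higher and 26.0% lower. For the FGF23 variant group against mCherry, 2 of 9 were higher and 2 lower, against 11.7% and 11.4% of 18824 genes. For the FGF23 variant group against NC, 5 of the 8 members that passed the filter were higher and 1 lower, against 21.7% and 20.6% of 19005 genes. With libraries scaled by their totals alone, the genes called were 5828 higher and 3958 lower, 4060 and 1035, and 7829 and 2096 in the same order of comparisons. The median log2 fold change of all genes then moved to 0.12, 0.21 and 0.34, and the member calls became 4 and 2, 5 and 2, and 5 and 0. Single libraries also moved these counts. The 1 member lower in the FGF23 variant group than NC, Rdh16, was not called without FGF23 variant replicate 2 or 5, and 2 were lower without NC replicate 3 or 4. For the FGF23 variant group against mCherry, 1 member was lower without mCherry replicate 2 or 3 or FGF23 variant replicate 1, 2 or 5. There 3 were higher without mCherry replicate 1 or FGF23 variant replicate 1, and 4 without mCherry replicate 3. For mCherry against NC, 2 were higher without mCherry replicate 3 or NC replicate 1 or 4, 4 were higher without mCherry replicate 2, and 3 were lower without mCherry replicate 3. The comparisons share the mCherry or the NC libraries, so they are not independent of each other.

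Around these 9 genes stood 43 other genes of the pathway and 8 genes known to be induced by retinoic acid. They were tested by the same edgeR quasi-likelihood model with Benjamini-Hochberg adjustment over all genes. Both lists were taken by role and not picked for how their genes moved. Earlier results of these data were known by then, so the adjusted p-values are given with that limit. In the mCherry group against NC, the uptake genes Lrp2 and Ttr and the storage gene Lrat were among the largest decreases of the pathway list. Their roles did not fall as a whole. Of 7 binding and uptake genes tested, 4 fell and 3 rose, and of 3 ester storage and release genes, 1 fell and 0 rose. Of 33 pathway genes tested, 12 fell and 9 rose, with a median log2 fold change of -0.07 beside -0.0026 for all genes. Of all 18724 genes tested, 26.0% fell and 27.2% rose. Lrp2, encoding megalin, fell from a mean of 1762 to 182.9 CPM (-3.26 ± 0.27, adjusted p = 3.62e-06). Ttr, encoding the transthyretin that holds retinol-binding protein in blood, fell from 127.7 to 12.6 CPM (-3.34 ± 0.32, adjusted p = 1.23e-05). Lrat, which esterifies retinol for storage, fell by 2.77 on the log2 scale (adjusted p = 7.52e-06). All 8 proximal tubule markers fell in the same comparison, and their part in these decreases was not tested.

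Enzymes of the pathway moved in both directions in that comparison. Dhrs3, which returns retinaldehyde to retinol, fell from 135.7 to 22.6 CPM (-2.58 ± 0.16, adjusted p = 5.95e-07). Dhrs4 (-1.75 ± 0.10, adjusted p = 2.65e-07) and Aldh8a1 (-2.13 ± 0.24, adjusted p = 3.34e-05) fell as well. The carotenoid-cleaving enzymes parted, since Bco2 fell from 19.97 to 0.845 CPM (-4.56 ± 0.25, adjusted p = 2.33e-07) and Bco1 rose from 2.04 to 10.7 CPM (2.40 ± 0.18, adjusted p = 1.91e-06). Rdh11, which reduces retinaldehyde, rose from 17.2 to 45.5 CPM (1.41 ± 0.11, adjusted p = 3.02e-06), and Aldh1a7 rose from 8.64 to 24.2 CPM (1.49 ± 0.18, adjusted p = 5.16e-05). Stra6l, a receptor for retinol-binding protein, rose by 1.68 on the log2 scale (adjusted p = 3.94e-04). Adh7 and Rdh12 also rose, and Adh5, Rdh14 and Fabp5 also fell. The retinol-binding protein receptor Stra6 fell by 1.62 (adjusted p = 0.0328), a call that 8 of 15 alternative settings did not keep (adjusted p from 9.64e-03 to 0.138). Among those were the fits without mCherry replicate 2 or 4 and without NC replicate 2 or 4.

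In the FGF23 variant group against mCherry, 10 of 36 pathway genes rose and 3 fell, with a median of -0.03 beside 0.0084 for all genes. Of all 18824 genes tested, 11.7% rose and 11.4% fell. Ttr rose from 12.6 to 79.3 CPM (2.64 ± 0.37, adjusted p = 1.61e-03) and Lrp2 from 182.9 to 509.7 (1.46 ± 0.34, adjusted p = 0.0140). Both stayed below NC, where the adjusted p of the difference was 0.0300 for Ttr and 7.47e-04 for Lrp2. Dhrs3 rose by 0.99 (adjusted p = 7.42e-03), Bco2 by 1.75 (adjusted p = 9.01e-03) and the nuclear receptor Ppard by 0.64 (adjusted p = 7.94e-03). Lrat (adjusted p = 0.0197), Rdh11 (0.0476), Rdh7 (0.0398), Rdh19 (6.48e-03) and the retinoic acid receptor Rarb (0.0283) passed as well. Rdh19 and Rdh7 did so from mCherry libraries with at most 5 counts. The calls of Rdh11, Rdh7, Rarb and Lrat were lost in 11, 10, 8 and 4 of 15 alternative settings. The call of Lrp2 was lost without the highest-fat library of each group (1.01, adjusted p = 0.0558). Leaving out any 1 of the 8 libraries ended the call of Rdh11, any but mCherry replicate 1 that of Rdh7, and FGF23 variant replicate 1 or 5 that of Lrat. The call of Rarb ended without FGF23 variant replicate 1, 2 or 5 or mCherry replicate 2, 3 or 4. Without FGF23 variant replicate 1, or without replicate 5, 6 pathway genes in place of 10 were called higher. Adh1 (-1.17, adjusted p = 6.04e-03), Adh7 (-1.21, adjusted p = 0.0111) and Rdh5 (-0.76, adjusted p = 2.79e-03), all able to oxidise retinol, fell. Of 8 proximal tubule markers 4 rose and none fell in this comparison. Their part in these changes was not tested.

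Against NC, 14 of 35 pathway genes were lower and 8 higher in the FGF23 variant group. The median of the 35 was -0.24 beside 0.0109 for all genes. Of all 19005 genes tested, 20.6% were lower and 21.7% higher. Bco1 (2.16 ± 0.20, adjusted p = 1.63e-05), Rdh11 (1.73 ± 0.10, adjusted p = 9.71e-07) and Aldh1a7 (1.48 ± 0.23, adjusted p = 4.78e-04) were higher, as in mCherry against the same NC libraries. Bco2 (-2.81 ± 0.26, adjusted p = 1.74e-05), Aldh8a1 (-1.87 ± 0.20, adjusted p = 4.57e-05), Dhrs4 (-1.76 ± 0.10, adjusted p = 1.09e-06) and Dhrs3 (-1.59 ± 0.16, adjusted p = 3.34e-05) were lower. Adh1 was lower by 1.59 (adjusted p = 2.72e-05, log2 fold change -1.59).

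**Figure D5:**
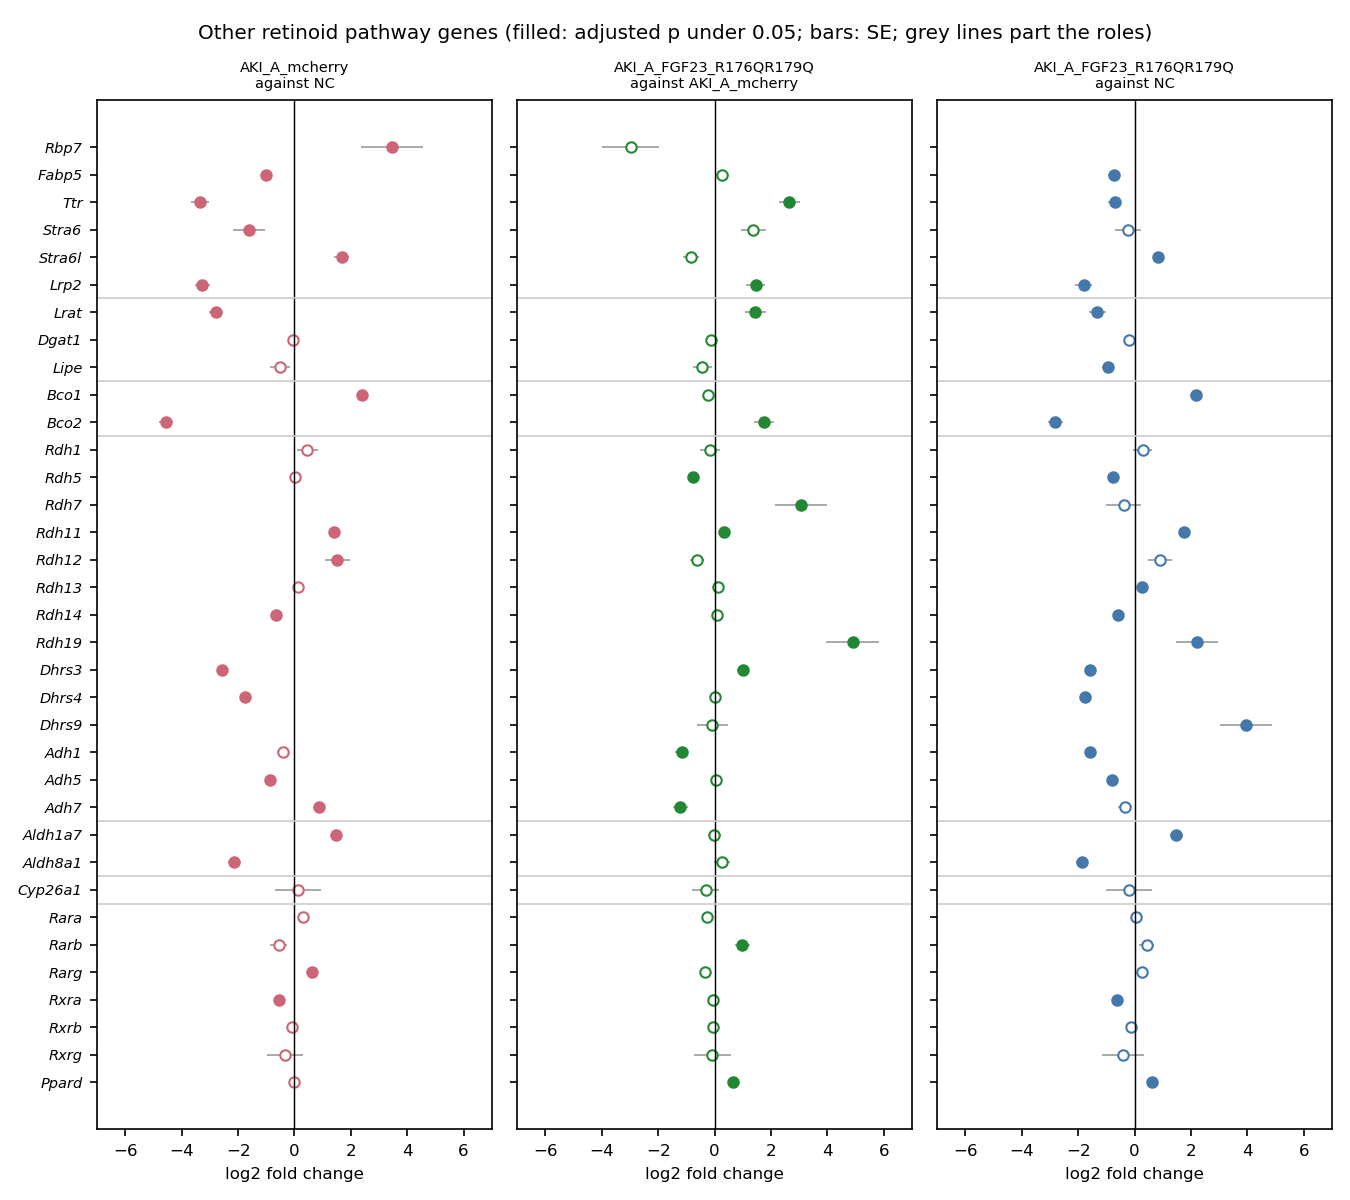
Log2 fold changes (horizontal axes, SE bars) of other retinoid pathway genes that passed the filter, ordered by role, in the 3 comparisons, with filled points for an adjusted p under 0.05. Bco2 lies at -4.56 and Bco1 at 2.40 for mCherry against NC, and Rdh19, at 4.89 for the FGF23 variant group against mCherry, rests on few counts.

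The receptors had medians near those of all genes. The retinoic acid target list had higher medians for both injured groups against NC, but each of these medians of 8 genes fell between genes that were not called. No shift of the list is drawn from them. The median log2 fold change of the target list was 0.28, 0.05 and 0.18 in the 3 comparisons. That of the receptors was -0.07, -0.07 and 0.05, and that of all genes -0.0026, 0.0084 and 0.0109. For mCherry against NC, the 7 receptors tested gave 1 rise, Rarg (0.60, adjusted p = 4.64e-03), and 1 fall, Rxra (-0.56, adjusted p = 1.47e-03). Rara had 0.31 (adjusted p = 0.0543) and Rarb -0.56 (adjusted p = 0.145). Cyp26a1, the enzyme induced by retinoic acid in many tissues, was at a mean of 0.340 CPM or less in each group and passed no test, with adjusted p of 0.912, 0.664 and 0.870. Of 8 target genes, 3 rose and 1 fell for mCherry against NC. For the FGF23 variant group, 2 rose and 1 fell against mCherry, and 2 were higher and none lower against NC. The shares of all genes called higher and lower were 27.2% and 26.0%, 11.7% and 11.4%, and 21.7% and 20.6% in the same order. The 1 fall for mCherry against NC was not called without mCherry replicate 1, 3 or 4 or NC replicate 1 or 2, and without mCherry replicate 2 there were 2. For the FGF23 variant group against mCherry, 1 gene in place of 2 rose without FGF23 variant replicate 2, and none fell without FGF23 variant replicate 1. Tgm2, a transglutaminase induced by retinoic acid, rose by 0.90 for mCherry against NC (adjusted p = 2.69e-05) and fell by 0.38 for the FGF23 variant group against mCherry (adjusted p = 0.0169). The fall of Tgm2 was not kept in 4 of 15 alternative settings, among them library totals alone (-0.17, adjusted p = 0.209) and leaving out FGF23 variant replicate 1 (adjusted p = 0.0536).

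The genes whose log2 CPM tracked a member most closely over the 12 libraries, among 11046 genes of at least 5 CPM, are given as a description; the libraries share their groups, so any gene that differs by group can rank high. For Rdh16 they were Flvcr2 (Pearson r = 0.992), Hao2 (0.986) and Ceacam2 (0.983), and for Rdh16f2 Rab27a (0.968), Slc23a3 (0.960) and Golph3l (0.959). For Aldh1a2 they were Tram1 (0.985), Tmem41b (0.980) and Dnajc5 (0.978), and for Aldh1a1 Pfn2 (0.936), Snx16 (0.917) and Jrk (0.914). For Cyp26b1 they were Gpr160 (0.899), Atf7ip (0.882) and Atmin (0.825). For Aldh1a3 they were Cidec (0.903), Fabp4 (0.878) and Dennd2d (0.862), of which Cidec is in the fat marker list and Fabp4 is a known fat cell gene.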

How the data were processed

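Poly(A) RNA of mouse kidney was sequenced as paired reads of 150 bases, per the labels' protocols. Gene counts were deposited by the authors with FPKM values beside them. Among tools, fastp, StringTie and edgeR are named per the submitters' processing notes, as is GRCm39 as the build. The aligner and the tool versions were not given in the sources used here. All 12 per-library tables held the same values as the series table. Of 32047 rows, 31942 had a symbol. Small counts are not all single events: 4 occurred 11995 times, 3 occurred 5847 times and 5 occurred 3638 times, so values of a few counts are imprecise.

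For each comparison, only the 8 libraries it concerns entered the model, in edgeR 4.0.16 (R 4.3.3): TMM factors, filterByExpr, the quasi-likelihood F test, and Benjamini-Hochberg adjustment at 0.05. SE is the absolute log2 fold change divided by the square root of F. FPKM was used as deposited, only to compare genes. Library totals limit precision, and replicates of a group differed from each other beyond sampling noise (chi-square per degree of freedom 34.1 to 148). The alternatives were DESeq2 1.42.0, RLE factors, library totals alone, no filter, all 12 libraries in 1 fit, a replicate block, leaving out each library and, chosen after seeing the data, leaving out the library with the highest fat marker sum in each group. The fit was also run on simulated counts with far fewer changed genes than were called in these comparisons. Its outcome is not reported here, and nothing is drawn from it.

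The members and the gene lists were chosen with earlier results of these data known. Genes of the pathway and target lists were taken by role and not picked for how they moved. All 9 members are named. Other pathway or target genes are named when past the threshold with a mean of at least 1 CPM, the largest changes first and at most 10 a direction, besides receptors, close copies of Rdh16 and uptake genes that are always named. Certain listed genes are counted but not reported here by name. Of 45 listed pathway genes, 43 were in the table. Likeness used log2(CPM + 0.5). Coding sequences are the longest open reading frames of GENCODE M21 transcripts, aligned with Biopython 1.88 in Python 3.11.15; identity is of bases, where a comparison of proteins had been planned. Promoters are RefSeq windows with 250 bases before and 50 after a start.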

Additional observations from a re-analysis of the deposited data

Results flagged for a closer look

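Each gene's 4 libraries in each group were compared with Dixon's criterion for a value far from the others, in 27 sets, of which chance marks about 1 in 20. Aldh1a3 in mCherry replicate 3 was at 30.7 CPM, with the other libraries of the group at 0.321 to 0.857, and in NC replicate 2 at 19.1 CPM, with the others at 0.712 to 3.27. Crabp2 in mCherry replicate 3 was at 4.34 CPM, with the others at 0.315 to 0.702. Rbp4 in NC replicate 3 was at 0.0647 CPM, from 4 counts, with the others at 1.02 to 1.18. Cyp26b1 in FGF23 variant replicate 1 was at 3.73 CPM, with the others at 7.92 to 8.66.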

How the results depend on the processing

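Of the member fold changes recomputed, 375 moved by less than the spread between replicates and 15 by more. The latter were Aldh1a3 and Crabp2 values and, with library totals alone, Rdh16 (-0.12), Rdh16f2 (1.47), Rdh10 (0.90) and Aldh1a2 (4.89) in the FGF23 variant group against NC. The count of other pathway genes higher with the FGF23 variant than in mCherry, 10, became 3 with the replicate block and 5 without the highest-fat libraries. In the block fits of the FGF23 variant group, its replicate 5 and replicate 4 of the other group have no same-numbered partner. Those libraries do not inform the blocked difference, so fewer libraries stand behind these fits. Leaving out 1 library at a time gave 6 to 10, with 6 without FGF23 variant replicate 1 and without replicate 5. The count lower, 3, became 5 with DESeq2, 1 with the replicate block, 5 without the highest-fat libraries and 3 to 4 without 1 library. The count higher than NC, 8, became 13 with library totals alone, 5 with the replicate block and 6 to 10 without 1 library. Members called higher with the FGF23 variant than in mCherry, 2, became 5 with DESeq2, with library totals alone and without the highest-fat libraries, and 4 without mCherry replicate 3; with the replicate block 2 were higher and 0 lower, and 3 and 0 against NC. The block also ended the calls of Dhrs3 (adjusted p = 0.0572), Ppard (0.0550), Rdh19 (0.0620), Adh1 (0.0615) and Adh7 (0.0625) in edgeR's test of the FGF23 variant group against mCherry. Of the retinoic acid targets, the 1 lower for mCherry against NC became 0 to 2 without 1 library; for the FGF23 variant group against mCherry, the 2 higher became 1 to 3 and the 1 lower 0 to 1. Deviations from the group means correlated between same-numbered libraries at -0.38 to 0.0876 for mCherry with NC. For the FGF23 variant group they correlated at 0.0845 to 0.229 with mCherry and at -0.229 to -0.103 with NC. With 3 or 4 such pairs in a comparison, these values cannot decide whether the replicate numbers pair the libraries. Over all genes the replicate block left 984 higher and 803 lower for the FGF23 variant group against mCherry. Of the named pathway genes' recomputed tests, 1041 kept their side of the threshold, 72 lost it and 12 gained it, and none changed direction while called.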
